A study of Mus musculus with 4 samples.

Results

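Celf1 to Celf6 and Rbfox1 to Rbfox3 encode RNA-binding proteins that set which exons are kept in neuronal messenger RNA. The 9 genes were described here by the peaks of H3K27ac, a histone acetylation of active promoters and enhancers, at their transcription start sites, along their bodies and within 100 kb. They are the complete Celf and Rbfox families, 9 of 21755 protein-coding genes. The members were chosen by family, with the signal and width of their peaks in these same lists already known, so their values are given as a description with no test. Each peak of the replicated list was placed at a start site if it lay within 1000 bp of any start of the GENCODE vM21 basic transcripts, in the gene body if it overlapped the gene elsewhere, and in the flank if it lay outside within 100 kb. This gave 32 start-site peaks, 457 gene-body peaks and 152 flanking peaks on the mouse assembly mm10 (GRCm38). At the edge of the 1000-bp window, a Celf2 peak of signal 2.60 lay inside at 917 bp and a Celf2 peak of 2.05 lay outside at 1046 bp from the nearest start.

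The tissue was left cerebral cortex from female adult mice of B6CASTF1/J, the hybrid of the strains CAST/EiJ and C57BL/6J, at 2 months of age. All 4 samples form 1 group. There are 2 pools of tissue, named I and J, each made of 4 biosamples and each with 2 libraries. There is no second tissue, genotype or treatment, and the animals of a pool cannot be separated. The authors deposited a replicated list of 72027 peaks, a list of 69835 peaks from pool I alone and a list of 49839 peaks from pool J alone, so the pool J list is the shorter, and both libraries of a pool share its list. The signal of a peak is the authors' value and was used only to describe and rank peaks within a list. The lists were made separately and carry no read counts, so the depth is unknown and values of pool I and pool J are set side by side with no error and no test. Reads from CAST/EiJ chromosomes can differ from the reference at strain variants, and what this does to a peak was not tested.

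CELF proteins, the CUGBP and Elav-like family, bind RNA rich in U and G and act on splicing in the nucleus and on translation and decay of messenger RNA in the cytoplasm. RBFOX proteins bind the element UGCAUG and favour or block an exon depending on whether they bind downstream or upstream of it. Celf1 and Celf2 are expressed in many tissues and Celf3 to Celf6 mainly in the nervous system, while Rbfox3 is the antigen known as NeuN, used to stain nuclei of mature neurons.

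Cortex is a mixture of cell types. Peaks stood at the start sites of all 6 marker genes of excitatory neurons, with a median signal of 12, and of 3 of 4 markers each of interneurons, astrocytes, oligodendrocytes and microglia, with medians of 3.37, 7.03, 3.77 and 3.97. All 4 endothelial markers had such a peak, with a median of 4.33. None of the 4 genes of other tissues, Alb, Myh6, Hoxb4 and Cd3d, had any. In bulk tissue, fewer cells of a type and less acetylation per cell cannot be told apart.

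The start regions below are shown because they bear the peaks the description turns on, CpG-rich and CpG-poor starts of the same family, and an unmarked start beside a marked one. They are the bases before a RefSeq start on GRCm38.p6, up to 250, cut where an annotated exon begins, and read 5′ to 3′ on the strand of the gene. Capitals mark exact matches on either strand to 11 short motifs. Of these, TGACGTCA (the cAMP response element, CRE), GGGCGG (bound by SP and KLF factors) and CCAAT (the box named for it) occur in these sequences. So do CAGATG (an E-box) and TATAAA (the letters of the TATA box). The distance of a match from the start was not used, so a marked TATAAA need not be a working TATA box.
Celf2 chr2:6872036-6872285 (-): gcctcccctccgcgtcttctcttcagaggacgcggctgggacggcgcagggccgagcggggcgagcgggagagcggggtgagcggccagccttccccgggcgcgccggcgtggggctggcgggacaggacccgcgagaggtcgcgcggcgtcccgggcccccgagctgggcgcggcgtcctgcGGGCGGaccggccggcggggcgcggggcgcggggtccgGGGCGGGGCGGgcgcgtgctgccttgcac
Celf2 chr2:7396199-7396448 (-): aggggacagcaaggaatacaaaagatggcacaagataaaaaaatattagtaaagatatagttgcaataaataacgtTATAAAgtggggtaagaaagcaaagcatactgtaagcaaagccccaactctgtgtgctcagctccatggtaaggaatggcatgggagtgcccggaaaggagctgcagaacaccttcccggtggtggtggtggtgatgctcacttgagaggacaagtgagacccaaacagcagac
Celf3 chr3:94478045-94478294 (+): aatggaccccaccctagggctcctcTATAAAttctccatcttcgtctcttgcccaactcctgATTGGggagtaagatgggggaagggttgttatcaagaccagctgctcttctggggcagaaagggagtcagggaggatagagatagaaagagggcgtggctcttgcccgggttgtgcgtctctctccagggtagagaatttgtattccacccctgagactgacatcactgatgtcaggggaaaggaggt
Celf3 chr3:94484077-94484326 (+): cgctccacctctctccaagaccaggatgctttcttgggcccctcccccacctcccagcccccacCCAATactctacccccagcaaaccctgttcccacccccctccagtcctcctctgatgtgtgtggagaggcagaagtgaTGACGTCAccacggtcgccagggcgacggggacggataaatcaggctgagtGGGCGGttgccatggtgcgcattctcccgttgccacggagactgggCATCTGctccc
Celf5 chr10:81482710-81482949 (-): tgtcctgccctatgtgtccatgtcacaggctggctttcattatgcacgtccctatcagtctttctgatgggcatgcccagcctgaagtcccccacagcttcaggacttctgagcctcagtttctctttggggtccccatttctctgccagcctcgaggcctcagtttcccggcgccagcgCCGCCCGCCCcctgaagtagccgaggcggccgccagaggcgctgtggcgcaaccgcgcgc
Celf6 chr9:59589038-59589287 (+): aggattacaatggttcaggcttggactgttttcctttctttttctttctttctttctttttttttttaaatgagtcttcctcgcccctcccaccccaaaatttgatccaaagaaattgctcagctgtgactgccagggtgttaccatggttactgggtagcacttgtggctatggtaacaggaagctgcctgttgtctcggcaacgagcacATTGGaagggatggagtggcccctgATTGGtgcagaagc
Rbfox1 chr16:5884543-5884792 (+): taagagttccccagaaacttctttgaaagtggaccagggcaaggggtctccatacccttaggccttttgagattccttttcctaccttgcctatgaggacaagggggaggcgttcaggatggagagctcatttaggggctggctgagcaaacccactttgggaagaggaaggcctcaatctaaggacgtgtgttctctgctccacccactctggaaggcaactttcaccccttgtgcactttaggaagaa
Rbfox1 chr16:7069585-7069834 (+): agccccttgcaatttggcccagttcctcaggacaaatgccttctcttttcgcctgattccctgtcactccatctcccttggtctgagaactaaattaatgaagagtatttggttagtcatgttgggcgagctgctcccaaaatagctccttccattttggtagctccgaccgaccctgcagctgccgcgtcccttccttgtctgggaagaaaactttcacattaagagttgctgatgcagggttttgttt
Rbfox3 chr11:118761042-118761291 (-): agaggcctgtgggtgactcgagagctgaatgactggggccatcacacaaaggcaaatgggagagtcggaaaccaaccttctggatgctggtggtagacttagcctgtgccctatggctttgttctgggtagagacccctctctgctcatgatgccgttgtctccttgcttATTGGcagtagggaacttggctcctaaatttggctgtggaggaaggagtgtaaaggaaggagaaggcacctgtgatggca
The table of promoters held windows for 7 of the 9 genes, and Celf4 and Rbfox2 are named only.

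All 9 genes had a start-site peak in the replicated list, against 58.5% of protein-coding genes. All 9 also had one in the pool I list, against 58.2%, and in the pool J list, against 55.2%. The highest start-site signal of the 9 had a median of 12.8, against 8.86 for all coding genes with such a peak. The difference in summed width was larger. The summed width of start-site peaks had a median of 5053 bp for the 9 genes and 1466 bp for all coding genes with one. The signal stood between the 55.0 and the 88.3 percentile, while the summed width stood at or above the 91.8 percentile for each of the 9. That percentile is the one of Celf1, whose 3537 bp are the sum of 6 peaks at 3 start sites. Its widest single peak, 1236 bp, stood at the 52.4 percentile, and that of each other gene at or above the 86.4 percentile. The sum runs over all start sites of a gene. With starts within 1000 bp joined, the 9 genes have 24 and the 21755 coding genes 27314. In the pool J list the summed width of Celf1 was 1634 bp, at the 67.5 percentile of that list. That of Celf5 was 5078 bp there, against 8290 bp in the replicated list, and stood at the 98.3 percentile. The other 7 genes stood at or above the 93.7 percentile in pool J.

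The order of the highest start-site signals was Celf3 at 15.4, Celf5 at 15.2, Celf2 and Rbfox3 at 14.3, Rbfox2 at 12.8, Celf1 and Celf4 at 12.5, Rbfox1 at 11.3 and Celf6 at 9.46. Each list has its own scale and no replicate error, so this order was compared with the order within each pool list. Of the 8 neighbouring pairs, 3 stood in the same order in both pool lists, namely Rbfox3 above Rbfox2, Celf4 above Rbfox1 and Rbfox1 above Celf6. Of all 36 pairs, 27 did. Within the pool I list Celf2 had 19.2, Celf3 18.8, Rbfox3 18.2 and Celf5 17.6. Within the pool J list Celf5 had 13.2, Celf3 12.4, Rbfox3 12.2 and Celf2 10.7. In both lists Celf3, Rbfox3 and Celf5 stood above each of the other 5, and so did Celf2 in pool I. In pool J Celf2 and Celf1 had the same value to the digits given, 10.7. For Celf2 that value is of the start at chr2:7396000. The start that gave 19.2 in pool I, at 6884946-6884996, had 9.46 in pool J. Celf6, with 11.5 in pool I and 7.61 in pool J, was the lowest. Among the rest, Rbfox2 had 16.0, Celf4 16.4, Celf1 12 and Rbfox1 12.7 in pool I, and in pool J Rbfox2 had 9.65, Celf4 10, Celf1 10.7 and Rbfox1 9.46.

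Annotated starts within 1000 bp of each other were joined, which gave 24 start sites. Of these 21 (87.5%) carried a peak, against 51.6% of the start sites of all coding genes. All 7 genes with several start sites had peaks at more than 1 of them, against 24.6% of the coding genes with several. In 19 of the 21 marked sites both pool lists held a peak. The other 2 were the internal sites of Celf1, with a peak in pool I alone. At each of the 19 the value in the pool I list was the higher, but each list has its own scale. The highest signal anywhere in the list was 45.4 in pool I and 36.6 in pool J. How often pool I was the higher over all coding start sites was not counted. The 3 unmarked sites were 2 of Rbfox1 and the outermost of Rbfox3.

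**Figure D1:**
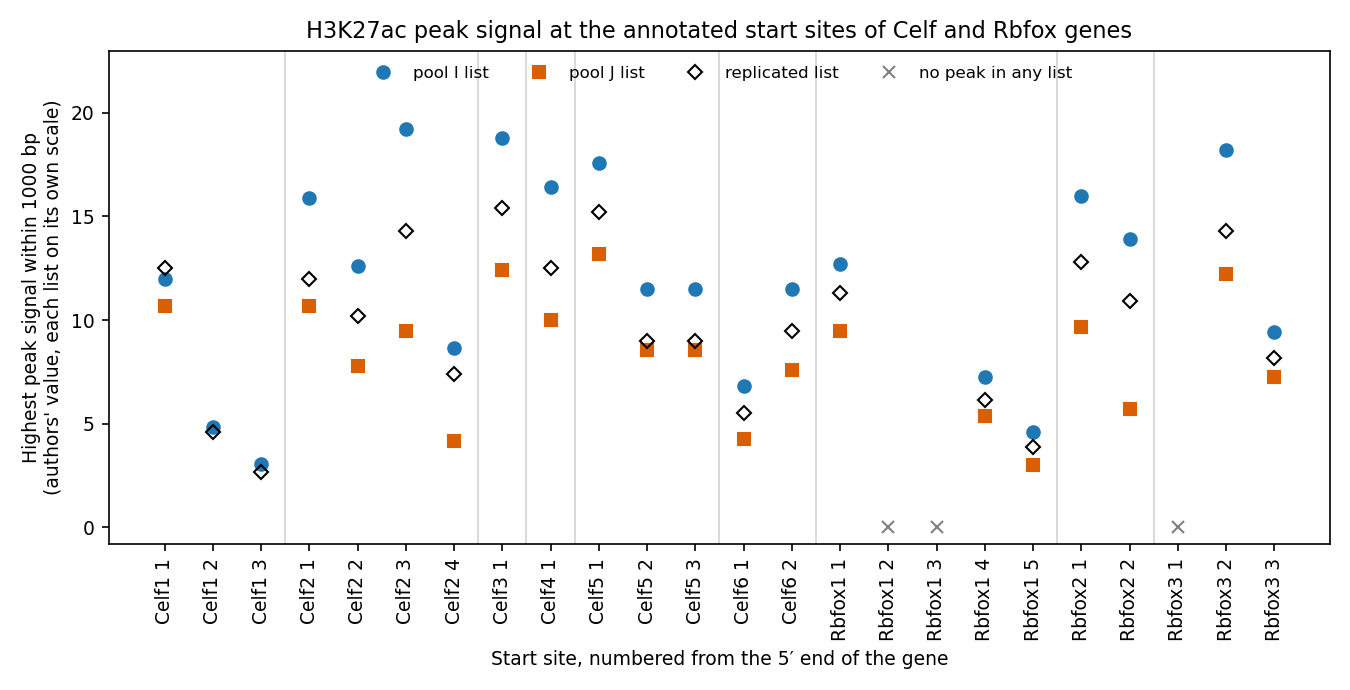
Highest peak signal within 1000 bp of each start site (vertical axis, the authors' value, each list on its own scale) for the start sites of the 9 genes, numbered from the 5′ end (horizontal axis), in the lists of pool I and pool J and in the replicated list. The 19 sites with a peak in both pool lists have the higher value in pool I, whose list also has the higher top signal. There is no peak at 3 sites.

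Celf1, also called CUGBP1, is known for its part in myotonic dystrophy, where its protein is overabundant. Its main start at chr2:90940397-90940543 carried 2 peaks with a summed width of 1820 bp. The higher, at 90940444-90941679, had a signal of 12.5 and lay mostly past the start, and the lower, at 90939732-90940315, had 5.96 and lay before it. In pool J 1 peak of 1634 bp overlapped both. This is CpG-rich sequence, with 61.1% G+C in the higher peak. The internal starts near 90987620 and at 90998579 had lower peaks, with top signals of 4.6 and 2.66 in the replicated list and 4.85 and 3.07 in pool I, and no pool J peak lay within 1000 bp of them. The gene-body peaks of highest signal overlapped no exon of the basic set. The peak at 90964152-90967542 had a signal of 8.73 over 3391 bp, with 12.3 in pool I and 7.04 in pool J, and lies at a start that only the comprehensive GENCODE set lists. The peaks at 90957628-90960078 and 90973794-90976992 had 7.06 and 6.77 and lie at no annotated start.

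Celf2, also known as ETR-3, spans 970 kb of chromosome 2 on the minus strand and had the widest summed start-site peaks of the 9 genes, at 16658 bp, the 99.9 percentile of coding genes. It has 4 start sites and all were marked. The most upstream of them, at chr2:7396000, lay under a peak of 7111 bp at 7390631-7397741 with a signal of 12. That peak had 15.9 in pool I and 10.7 in pool J. The start at 7081207-7081302 had 10.2, with 12.6 in pool I and 7.79 in pool J. The start at 6884946-6884996 had 14.3, the highest at a basic start of Celf2, with 19.2 in pool I and 9.46 in pool J. The last start, at 6721613-6721928, had 7.38, with 8.66 in pool I and 4.17 in pool J. Each start had its own peak, and the lowest was the one nearest to the 3′ end.

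A still higher peak of Celf2 stood at none of the 4 basic starts. The peaks at chr2:6868489-6872685 and 6872792-6877594 had signals of 14.4 and 12.4 and widths of 4197 and 4803 bp, and the first of them covers starts of the comprehensive GENCODE set between 6871972 and 6872597 and a curated RefSeq start at 6872035. The peak of 14.4 had 17.2 in pool I and 12.1 in pool J. The sequence before the RefSeq start is the CpG-rich one shown for Celf2, with 80.3% G+C and a CpG ratio of 1.02 (observed over expected CpG, 300-bp window), and GGGCGG occurs in it 3 times. The other Celf2 sequence shown lies before the RefSeq start at 7396198, in a window with 46.7% G+C and a CpG ratio of 0.258. Both starts carried wide peaks, of 14.4 and 12, on sequence of different composition. The gene's own 5′ end, at 7509563, had no peak within 1000 bp in any list.

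Celf3, Celf4, Celf5 and Celf6 are the members of the family known mainly from the nervous system. At Celf3, 13.9 kb long on chromosome 3, a peak of 4498 bp at 94476268-94480765 covered the joined starts and had a signal of 15.4, with 18.8 in pool I and 12.4 in pool J. Another peak of nearly equal signal, 15.3, stood inside the gene at 94483109-94486195. It had 19.9 in pool I, above the value at the 5′ start there, and 10.9 in pool J, below it. Curated RefSeq starts lie under it, and the sequence before them is the CRE-bearing Celf3 sequence shown. TGACGTCA was found in 3 overlapping windows at these Celf3 starts and in 1 window of Celf6, so in 4 of the 23 windows, which belong to 7 of the genes. It was found in 1.79% of all 32851 promoter windows and in 3.26% of those with a peak. The 3 Celf3 windows share their sequence and are not separate cases. A match says only that these letters occur there.

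Celf4, whose loss causes seizures in mice, lies on chromosome 18. Its start at 25753702-25754157 carried a peak with a signal of 12.5 over 2507 bp and an upstream peak with 8.97 over 1338 bp. The higher had 16.4 in pool I and 10 in pool J. A gene-body peak at 25677345-25683966 was nearly as high, 12.4, and at 6622 bp much wider, with 16.2 in pool I and 8.36 in pool J. A start of a curated RefSeq transcript lies under it at 25679748, which neither GENCODE set lists. Of the Celf4 peaks at no annotated start, the highest was at 25547835-25550500, with a signal of 8.46, 7.44 in pool I and 7.98 in pool J. At this peak the value in pool J was the higher.

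Celf5 on chromosome 10 had a start-site peak of 15.2 over 1964 bp at its 5′ start, 81482684-81482709, with 17.6 in pool I and 13.2 in pool J, beside the GC-rich sequence shown. A much wider peak, 6326 bp with a signal of 8.99, spanned its internal starts at 81474844 and 81473127, with 11.5 in pool I and 8.53 in pool J. The signal was therefore highest at the 5′ start and the width largest at the internal ones. Celf6 on chromosome 9 had the reverse order of signals. Its 5′ start at 59578192-59578337 had 5.53, with 6.8 in pool I and 4.27 in pool J. Its internal start at 59589288-59589339 had 9.46 over 3739 bp, with 11.5 in pool I and 7.61 in pool J. The window at the 5′ start had 76.7% G+C and a CpG ratio of 0.704, and the window at the internal start, part of which is shown, 48.0% and 0.232. At Celf6 the higher signal stood on the CpG-poorer start. The gene had no gene-body peak, and the last 53.4% of its length held none.

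Rbfox1, also known as A2bp1 for its binding to ataxin 2, is the longest of the 9 genes at 1526 kb, on chromosome 16. Its highest start-site peak, at the start 6349138, had a signal of 11.3 over 2348 bp, with 12.7 in pool I and 9.46 in pool J. The starts at 7193747 and 7224310 had 6.16 and 3.87 in the replicated list, 7.26 and 4.57 in pool I and 5.38 and 3.02 in pool J. The starts at 6809222 and 7069846 had no peak in any list. The annotated 5′ end of the gene, outside the basic set, carried a peak at 5884471-5886672 with a signal of 9.16 over 2202 bp, with 11.9 in pool I and 6.49 in pool J. The Rbfox1 sequences shown are those before this marked 5′ end and before the unmarked start near 7069846. Their windows had 52.7% and 50% G+C and CpG ratios of 0.144 and 0.380. The window before the marked 5′ end thus had the lower ratio. Over its 2202 bp, however, the peak there had 59.0% G+C and a CpG ratio of 0.481, above that of the unmarked window.

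Rbfox2, also expressed outside the nervous system, had 12.8 at its start 77306605-77306928 on chromosome 15, with 16.0 in pool I and 9.65 in pool J. Its internal start at 77153556-77153812 had 10.9 over 4088 bp, with 13.9 in pool I and 5.72 in pool J. Its highest peak stood between them, at 77243730-77247484, with a signal of 15.5 over 3755 bp, 18.6 in pool I and 13.3 in pool J. The comprehensive GENCODE set and curated RefSeq transcripts list starts there, between 77245506 and 77245608. This was the highest gene-body signal of the 9 genes.

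Rbfox3 on chromosome 11 had a peak of 5020 bp with a signal of 14.3 at its start 118909550-118909572, with 18.2 in pool I and 12.2 in pool J. The internal start at 118761041, whose sequence is shown, had 8.16, with 9.41 in pool I and 7.24 in pool J. The outermost start at 118911597 had no peak. Its highest gene-body peak, at 118790401-118795498 with a signal of 12.2 over 5098 bp, lay at the start of the long non-coding gene Gm11750, and what belongs to each gene cannot be told apart. The next highest were 2 peaks of 9.76 at no annotated start, 118771006-118774415 and 118881674-118886969. They had 10.6 and 13.3 in pool I and 8.72 and 7.24 in pool J.

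Along the gene bodies the 9 genes differed widely. Gene-body peaks were found in 8 of them, all but Celf6, against 32.0% of coding genes. Celf2 had 198, exceeded among all coding genes by Gm20388 alone, a 4435-kb locus with 379. By this number it ranked 2 in the pool I list, with 204 peaks, and 4 in the pool J list, with 129. Rbfox3 had 74, Rbfox1 68, Celf4 52, Rbfox2 33, Celf1 19, Celf5 7 and Celf3 6. In the pool I list Rbfox3 had 71, Rbfox1 78, Celf4 52, Rbfox2 27, Celf1 15, Celf5 5 and Celf3 3. In the pool J list Rbfox3 had 62, Rbfox1 36, Celf4 28, Rbfox2 22, Celf1 20, Celf5 4 and Celf3 5. A longer gene can hold more peaks, so each gene was set beside the other coding genes of similar length, the shorter of a pair being at least 80% as long as the longer. Celf2 exceeded all 72 such genes, whose median was 10.5. Rbfox3 exceeded 258 of 263, with a median of 8, and Celf4 399 of 414, with a median of 7. Rbfox2 exceeded 479 of 513, with a median of 5, Celf1 1453 of 1496, with a median of 1, and Rbfox1 16 of 19, with a median of 20. Celf3 exceeded 2564 of 2579, Celf5 2635 of 2677 and Celf6 0 of 2576, each with a median of 0.

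**Figure D2:**
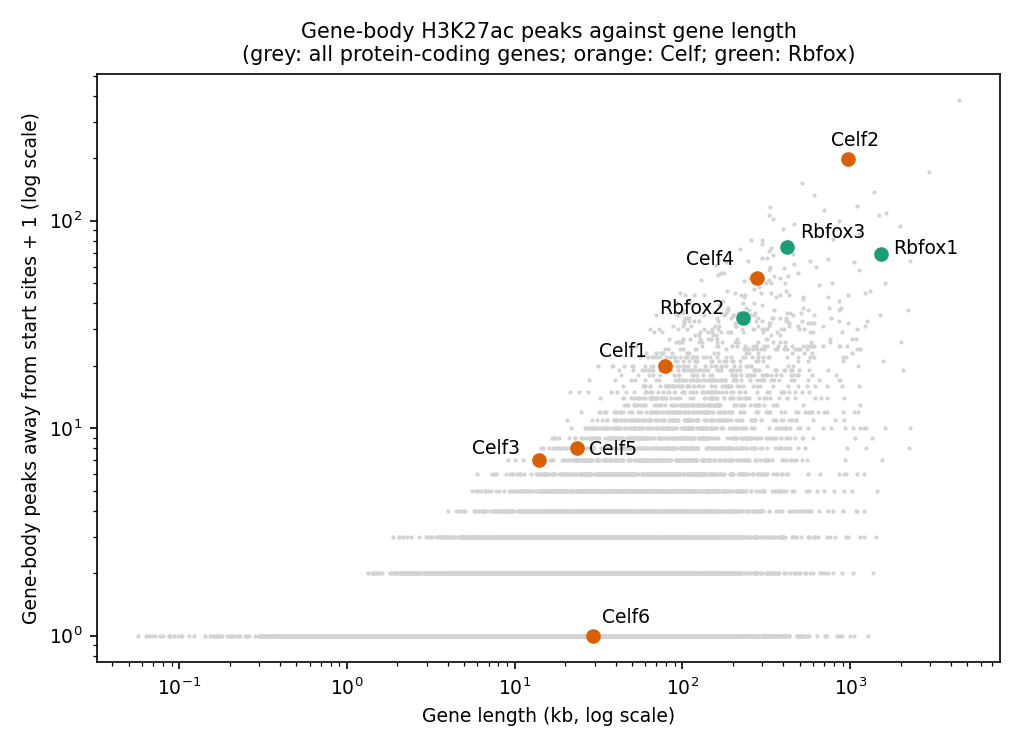
Number of gene-body peaks of the replicated list plus 1 (vertical axis, log scale) against gene length in kb (horizontal axis, log scale) for the Celf genes (orange), the Rbfox genes (green) and all 21755 protein-coding genes (grey). Celf2 with 198 and Rbfox3 with 74 stand near the upper edge for their lengths, Rbfox1 with 68 lies below it at 1526 kb, and Celf6 has 0.

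The share of the gene body under such peaks gave another order. It was 61.4% for Celf3, 35.2% for Celf1, 22.4% for Rbfox3, 20.2% for Celf5, 19.1% for Celf2, 16.1% for Celf4, 10.6% for Rbfox2, 2.52% for Rbfox1 and 0 for Celf6. Medians of the coding genes of similar length were at most 1.5%. In pool I the share was 53.6% for Celf3, 37.8% for Celf1, 25.2% for Celf2, 24.8% for Rbfox3, 20.6% for Celf5, 19.3% for Celf4, 12.3% for Rbfox2 and 3.44% for Rbfox1. In pool J it was 43.2% for Celf3, 19.0% for Celf1, 10.9% for Celf2, 15.7% for Rbfox3, 15.6% for Celf5, 8.95% for Celf4, 6.58% for Rbfox2 and 1.14% for Rbfox1. By raw count, Rbfox1 therefore combined many peaks with little of its length covered, and Celf3 few peaks with most of its length covered. The genes differ in length, 1526 kb and 13.9 kb. Per 100 kb Celf3 had 43.2 gene-body peaks, and Rbfox1 4.46. The share of Rbfox1 was above the median of 1.15% of its genes of similar length. For Celf3 the share rests on the annotation. With the starts of the comprehensive set, an alternative added after seeing the data, 4 of its 6 gene-body peaks became start-site peaks and its share was 8.23%.

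**Figure D3:**
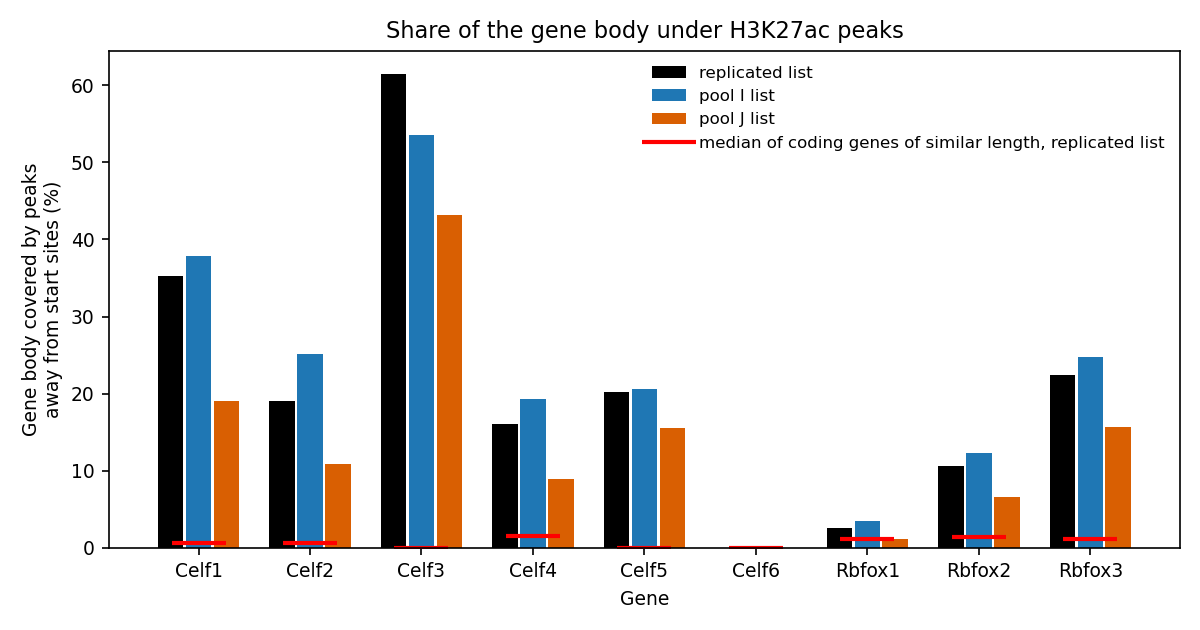
Percent of each gene body covered by peaks away from basic start sites (vertical axis) for the 9 genes (horizontal axis) in the replicated, pool I and pool J lists, with the median of coding genes of similar length in the replicated list as red lines. Celf3 has the highest share in each list, Rbfox1 is at most at 3.44% and Celf6 is at 0.

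Within the genes the peaks were not spread evenly. In Rbfox3, 62 of the 74 peaks lay in a stretch of 162639 bp at 118738580-118901218, where no gap between neighbours exceeded 12.5 kb, and a stretch of 84737 bp further along held none. In Celf2 the largest such stretch, 151367 bp at 7140047-7291413 between the starts at 7396000 and 7081207, held 68 of the 198. It includes the gene's highest peak at no annotated start, 7254269-7256196 with a signal of 9.44, 9.51 in pool I and 6.94 in pool J, and its widest, 7232649-7237543 with 8.39 over 4895 bp. In Rbfox2, 18 of 33 lay in 54891 bp around the internal peak of 15.5. Rbfox1 had no comparable cluster, since its largest stretch held 5 of 68 peaks.

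**Figure D4:**
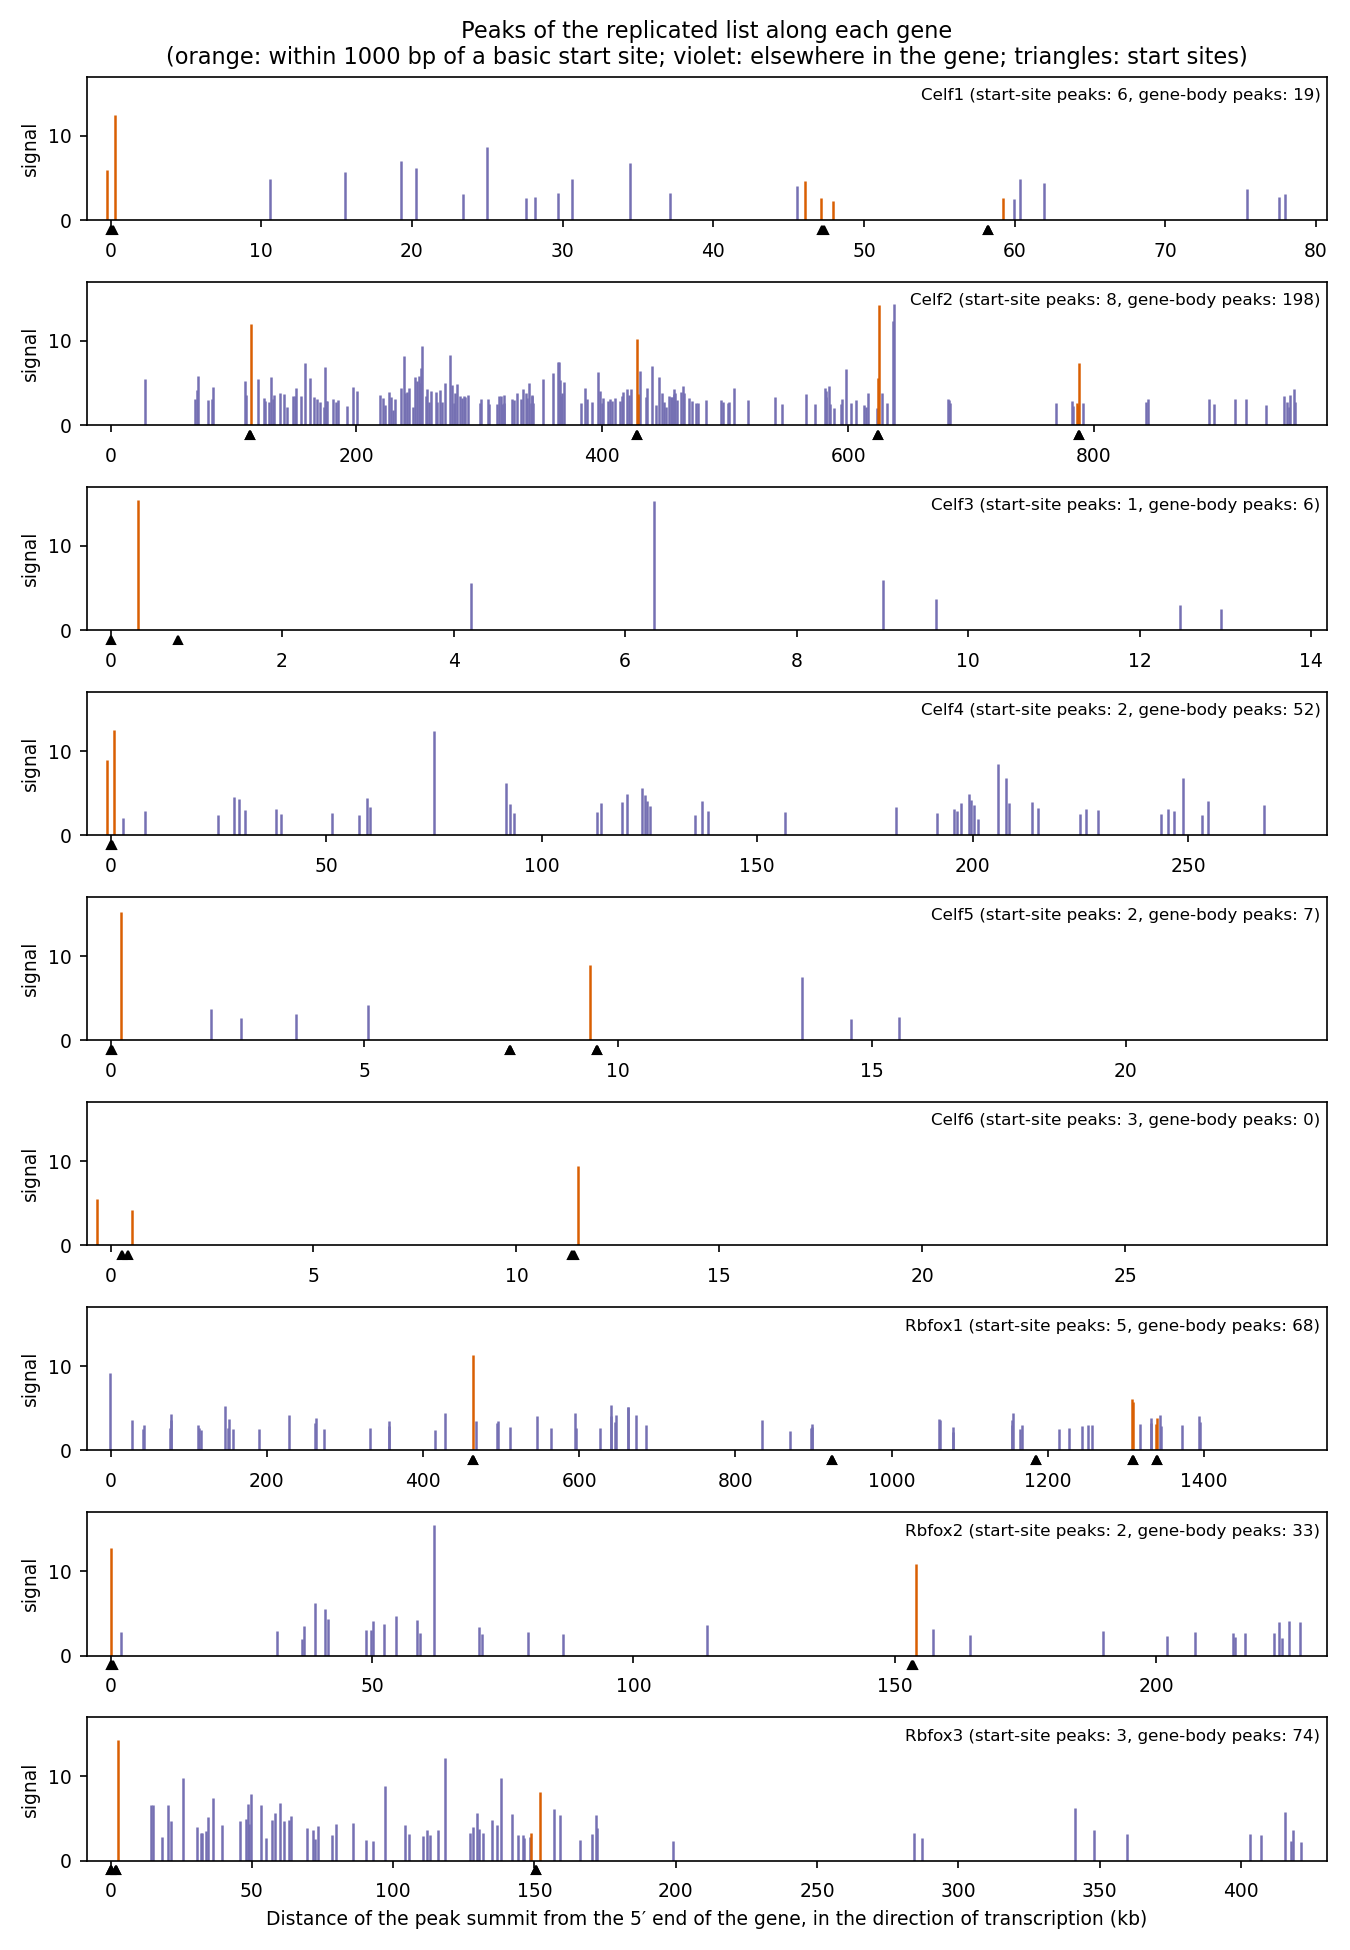
Signal of each start-site peak (orange) and gene-body peak (violet) of the replicated list (vertical axis, the authors' value) by the distance of its summit from the 5′ end of the gene in kb (horizontal axis, its own scale for each of the 9 genes), with triangles at the basic start sites. Rbfox3 peaks crowd between its outer and inner starts, Celf2 peaks fill the part between its upstream starts, and Rbfox1 peaks are thinly spread over 1526 kb.

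Most gene-body peaks were small. Their median signal was 3.37 and their median width 616 bp, against 3.28 and 535 bp for all 36509 peaks in coding gene bodies. A width of 2 kb or more was found in 47 (10.3%), against 6.0%. Of the 47, 20 were of Celf2, 13 of Rbfox3 and 6 of Celf1. Celf4 had 3, Celf3 and Rbfox2 2 each, Rbfox1 1 and Celf5 0. Of the 457, 428 overlapped no exon of a basic transcript. At starts of the comprehensive GENCODE set stood 16 of them, and at starts of other genes 12. Bases around 3 summits are shown here because they are among the peaks of highest signal or largest width of their genes that lie at no annotated start. Each window is 121 bp on the plus strand, with the same motifs in capitals.
Celf2 chr2:7233276-7233396: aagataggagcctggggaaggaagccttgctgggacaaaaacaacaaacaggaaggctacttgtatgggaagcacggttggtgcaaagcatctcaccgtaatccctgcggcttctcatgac
Rbfox2 chr15:77267777-77267897: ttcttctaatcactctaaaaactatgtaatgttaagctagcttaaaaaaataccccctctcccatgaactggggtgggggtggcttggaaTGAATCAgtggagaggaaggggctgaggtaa
Rbfox3 chr11:118885732-118885852: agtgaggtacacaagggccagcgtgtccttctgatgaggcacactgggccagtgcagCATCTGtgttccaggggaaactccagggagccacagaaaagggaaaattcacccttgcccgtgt
The Rbfox2 window belongs to the peak at 77267088-77269594, with a signal of 6.26, 9.0 in pool I and 5.19 in pool J, and holds a match to TGANTCA, the AP-1 element. The Rbfox3 window belongs to the peak at 118881674-118886969 and holds CAGATG on the other strand.

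As a median over peaks, the start-site peaks of the 9 genes were poorer in CpG than start-site peaks at large. Their median CpG ratio was 0.283 and their median G+C 48.4% over 32 peaks, against 0.628 and 56.3% over 17574 peaks at coding starts. Of the 32 peaks 6 were of Celf1 and 8 of Celf2, with medians of 0.159 and 0.261, while Celf4 and Celf6 had 0.671 and 0.605. The highest peak at the most upstream marked basic start had 0.819 in Rbfox2, 0.781 in Celf1 and 0.605 in Celf6. It had 0.564 in Rbfox3, 0.559 in Rbfox1, 0.551 in Celf4, 0.457 in Celf5 and 0.237 in Celf2 and Celf3. Gene-body peaks had 0.172 and 44.8%, against 0.207 and 47.8% for all coding gene bodies. These peaks were wider than most, and whether the ratio depends on width was not tested. In promoter windows of a fixed 300 bp, the 22 member windows with a peak had a median ratio of 0.384. All windows with a peak had 0.764. The 22 windows are of 7 genes, and some overlap. Within 100 bp of the summits of gene-body peaks, CAGATG, the E-box bound by neuronal bHLH factors, was found in 100 of 457 (21.9%), against 17.2% of all gene-body peaks. CCAAT was found in 22.5%, against 21.4%, and the MEF2 element in 3.28%, against 3.30%. The core of the element of REST, a repressor of neuronal genes, was found near 1 of 32 start-site summits, against 12 of 17574 (0.0683%) of all. This 1 match lies at the Celf6 peak at 59578167-59578630, with a signal of 4.17, and gives no usable share. CCAAT was found near 9 of the 32 start-site summits (28.1%), against 13.7% of all. In the promoter windows it showed no such difference. It was found in 8 of 23, some of them overlapping, against 37.4% of all windows and 35.7% of those with a peak. GGGCGG was found in 10 of the 23 promoter windows, against 35.7% of all windows and 62.5% of those with a peak. Of the 23, 22 overlapped a peak. The 10 include the overlapping Celf3 windows, which share 1 match and are not separate cases. Near start-site summits GGGCGG was found in 6 of 32 (18.8%), against 30.4% of all start-site summits.

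Of the 489 start-site and gene-body peaks, 248 (50.7%) overlapped a peak in both pool lists, 153 only a peak of pool I, 17 only a peak of pool J, and 71 no peak of either list. For all 72027 peaks the share in both was 56.0%. At start sites 25 of 32 (78.1%) were in both, against 84.3% of the peaks at coding starts. In gene bodies 223 of 457 (48.8%) were in both, against 45.5%. By gene, 49 of 74 gene-body peaks of Rbfox3, 93 of 198 of Celf2 and 25 of 68 of Rbfox1 were in both. Of the 333 pool J peaks at these genes, 93.1% were found in pool I, the same share as over all peaks. Of the 483 pool I peaks, 48.0% were found in pool J, against 55.5% over all.

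The flanks held 152 peaks, of which 53 lay at starts of other genes. Celf5, in a gene-dense stretch, had 34 of them, with 20 at other starts, and Rbfox1 had 1, with a signal of 2.97. The highest flanking peaks of Celf1, Celf3, Celf5, Celf6 and Rbfox3 stood at starts of the neighbours Psmc3 (19.2), Snx27 (15.8), Aes (20.1), Pkm (14.6) and Cant1 (10.9). That of Rbfox2, 15.6 over 3794 bp at 77364400-77368193, lay at the start of the non-coding gene Gm49436. That of Celf4 had 7.16 and lay at AC118208.1. That of Celf2, at 7546525-7548973 with a signal of 9.06, 11.1 in pool I and 7.61 in pool J, lay at no annotated start upstream of the gene's 5′ end. A flanking peak names a neighbour and not a target.

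For context, 34 other splicing factor genes were read in the same way. A start-site peak was found at 31, with a median highest signal of 11.2, against 12.8 for the Celf and Rbfox genes. Over all 34, with or without a start-site peak, the median share of gene body covered was 1.76%, against 19.1% for the Celf and Rbfox genes. Gene length was not matched here, and ran from 3.19 kb (Srsf2) to 1057 kb (Rbms3) in the list. The highest signals were those of Hnrnpl (28.1), Hnrnpk (20.1) and Tra2b (19.6), general splicing regulators with 17.1%, 0 and 0 of the gene body covered. The lowest were Srrm3 (3.27), Rbm38 (3.42) and Msi1 (3.57). Mbnl3 and the epithelial regulators Esrp1 and Esrp2 had none in the replicated list, and Esrp2 had a peak of 4.09 in the pool I list. Nova2, a splicing factor of neurons, was nearer to the Celf and Rbfox genes, with 13.5 at the start and 20.4% of the body covered. It was picked out after its values were seen. Nova1 was not nearer, with 9.76 at the start and 0% covered. Elavl2, Elavl3 and Elavl4 had 3.11%, 4.4% and 8.02% covered.

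The coding genes nearest to each of the 9 over percentile ranks of 4 measures (highest start-site signal, summed start-site width, number of gene-body peaks and share of the body covered) were also found. Myt1l and Mef2c, transcription factor genes of neurons, were the nearest to Celf2, at distances of 2.62 and 3.46 percentile points, and also to Rbfox3, at 2.72 and 2.48. Celf1 was nearest to Vps37b (2.59), Celf3 to Pcdhgc5 (1.71), Celf4 to Ankrd33b (3.75) and Celf5 to Mxi1 (2.99). Celf6 was nearest to Sstr3 (1.44), Rbfox1 to Adgrb3 (3.39), an adhesion receptor gene of 762 kb, and Rbfox2 to Phactr1 (1.81). Myt1l had a start-site signal of 13.7, 9864 bp of start-site peaks and 90 gene-body peaks over 19.7% of its body, beside 14.3, 16658 bp, 198 and 19.1% for Celf2. These distances were computed over genes within 1 peak list and describe these peaks alone.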

How the data were processed

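H3K27ac was measured by ChIP-seq in 4 libraries, 2 from each of pools I and J. Per the labels and the deposited file descriptions, the authors made a replicated list and a pseudoreplicated list from both pools and a pseudoreplicated list from each pool, 4 in all, on mm10. The sources used here do not name the aligner or the peak caller, nor the normalization of the signal, the authors' value for each peak. The authors also deposited a −log10 q for each peak, used as a filter, and the place of its summit.

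The members and lists were chosen with earlier results of these data known. Genes came from GENCODE vM21 basic on chromosomes 1 to 19 and X, and 1 pool I peak elsewhere was left out. The gene body was the GENCODE gene record. Matching between lists needed an overlap of 1 bp. Promoter windows (300 bp) and the genome came from RefSeq, GRCm38.p6, whose chromosome lengths equal those of mm10. All start sites, gene-body and flanking peaks of the 9 genes were counted. By a set rule, the start-site peaks and, of the others, the 3 of highest signal, the 3 widest and the highest in the flank could be named, as could the 3 highest and 3 lowest splicing factors and the 3 nearest genes. No test was run, since the series has 1 group, and each pool gives 1 list with no error. The lists hold no read counts, so the depth of each sample is unknown. Overlap counting was tested on simulated peaks. Alternatives were the other lists, a −log10 q of at least 5, windows of 500 and 2500 bp, the gene's 5′ end alone, stricter overlaps and, added after seeing the data, the comprehensive GENCODE set. Python 3.11.15, pandas 2.3.3, numpy 2.4.6, matplotlib 3.10.9 and samtools 1.23.1 were used.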

Additional observations from a re-analysis of the deposited data

How the results depend on the processing

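The 9 genes kept a start-site peak under every alternative run except the gene's 5′ end alone, where 7 had one, without Celf2 and Rbfox3, and start-site peaks numbered 10 (32 with all basic starts). With a −log10 q of at least 5, gene-body peaks numbered 198 (457 without this filter) and flanking peaks 89 (152). With an overlap of at least 50% of both peaks, 155 peaks were in both pool lists (248 with 1 bp). Leaving out either pool gave 27 to 28 start-site peaks, 306 to 455 gene-body peaks and 121 to 135 flanking peaks, with 9 genes marked. With the comprehensive GENCODE starts, added after seeing the data, there were 48 start-site and 441 gene-body peaks, and the gene-body share of Celf3 was 8.23%. Of 340 values of single genes under these settings, 64 moved by more than the difference between pools or, for counts, 1.5 times. No paired analysis was possible because the pools form 1 group and each gives 1 list. Depth is unknown, so weak peaks missed in pool J cannot be told apart from absent ones.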

Other observations

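Start-site peaks of high signal in the Celf genes differed in sequence composition. The start-site peak of Celf3 with a signal of 15.4 had a CpG ratio of 0.237, and the Celf1 peak with a signal of 12.5 had 0.781. Among other genes of the splicing factor list, Qk, a regulator of myelin transcripts, had 7277 bp of start-site peaks and a signal of 18.4, and Mbnl2, a muscleblind-like splicing regulator, had 8286 bp and 15.2. Their gene bodies were covered to 0.190% and 13.3%, beside 0 to 61.4% for the Celf and Rbfox genes. These genes were picked out after their values were seen.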
